A study of Mus musculus with 8 samples.

Results

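The colony-stimulating factor receptors and their ligands were described here as 7 genes of the deposited count table, chosen by symbol: the receptor genes Csf1r, Csf2ra, Csf2rb, Csf2rb2 and Csf3r, and the ligand genes Csf1 and Il34, out of 48440 genes in all. The table covers macrophages sorted as CD11b+ and F4/80+ cells from the pancreatic islets of male wild-type C57BL/6J mice. All mice were 16 weeks old. For the last 8 weeks, from 8 weeks of age, they ate standard chow (8% fat) or a high-fat diet, here HFD (45% fat). Each diet had 4 libraries, chow replicates 1 to 4 and HFD replicates 5 to 8, and each library held RNA pooled from 2 mice, so the library is the unit of replication and a single mouse cannot be seen. Values are given as CPM, counts per 1000000 of the library's scaled total.

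The receptor CSF1R is a tyrosine kinase that keeps most tissue macrophages alive and binds either of its ligands, CSF1 or IL-34. The receptor for GM-CSF joins a ligand-specific alpha chain, the product of Csf2ra, to the common beta chain, the product of Csf2rb, which also serves the IL-3 and IL-5 receptors; mice carry in addition Csf2rb2, whose product is a beta chain for IL-3. CSF3R, the receptor for G-CSF, is best known from neutrophils and their precursors. In many tissues the ligands CSF1 and IL-34 come from stromal, epithelial or neuronal cells and act on macrophages nearby.

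All 5 receptor genes were expressed in every library, and none of them differed between the diets beyond the spread between libraries. Per kilobase of merged exons Csf1r had the highest level, but with another gene length it could not be ordered against Csf2ra. Over all 8 libraries Csf1r varied least, with 915.6 ± 99.25 CPM for chow and 863.4 ± 116.7 CPM for HFD (SD, n = 4). The ligand gene Csf1 was near the detection limit, with 21 counts summed over chow and 85 summed over HFD, and Il34 had 0 counts in all 8 libraries. The filter on low counts kept 5 of the 7 genes, the receptors, so Csf1 and Il34 were described and not tested. With edgeR's quasi-likelihood test and Benjamini-Hochberg adjustment over all 10129 tested genes, 0 of the 5 receptor genes were called (adjusted p = 0.987 each), against a background of 0.0% called. Over all 10129 tested genes edgeR called 0, and the unadjusted p was under 0.05 for 542 (5.35%). On the same genes DESeq2 called 25 (0.247%) and limma-voom with library quality weights 1, none of them a receptor gene here. Of the 5 receptor genes 4 had a fold change below 0 on the log2 scale and 1 above, with a median of -0.09, beside a median of -0.02 and 51.4% below 0 over all tested genes. The CPM ranges of the diets overlapped for all 5, beside 1.68% of tested genes that lay wholly higher and 1.71% wholly lower in HFD.

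**Figure D1:**
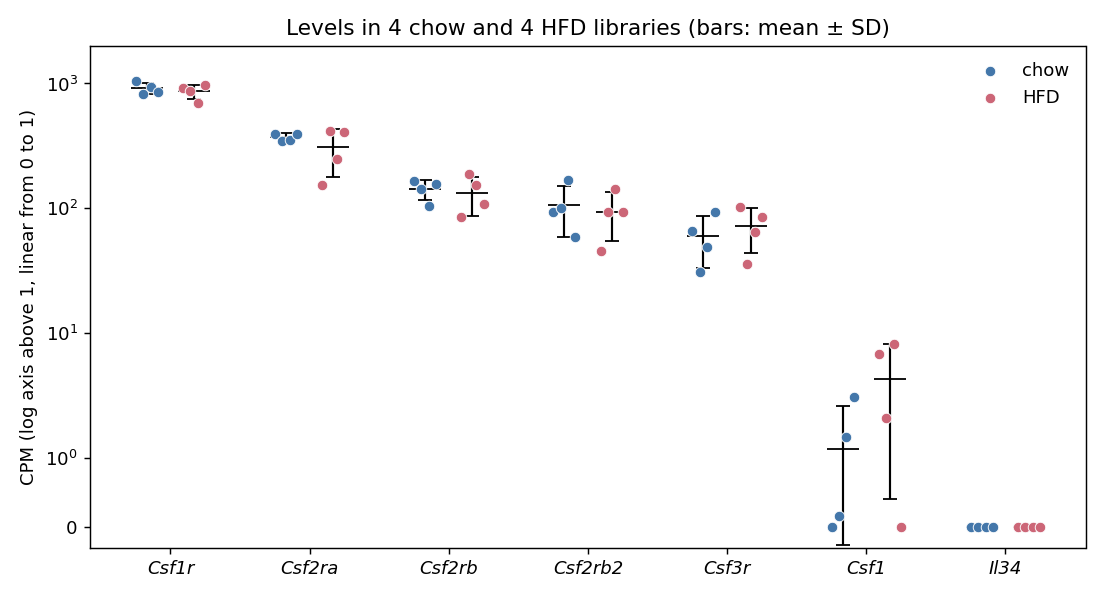
CPM of the 7 genes in each library (points; y axis logarithmic above 1 CPM and linear below), with the mean ± SD of 4 chow and 4 HFD libraries as bars. The diets overlap for all 7 genes; Csf1r lies between 699.3 and 1048 CPM, Csf1 between 0 and 8.219 CPM, and Il34 at 0; the chow SD bar of Csf1 reaches below 0 because its SD exceeds its mean.

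Library totals ranged from 4288665 to 6391247 counts. The sort markers were checked on a list of 10 macrophage genes, among them Adgre1 (F4/80) and Itgam (CD11b), none of which was at 0 over the libraries; their summed level was 5020 to 6680 CPM in chow and 4770 to 6050 CPM in HFD. Libraries differed in transcripts of other cells. The 9 acinar enzyme genes summed to 1440, 3130 and 1500 CPM in chow replicates 3 and 4 and HFD replicate 7, and to at most 62.8 CPM in the other libraries. The 9 stellate and fibroblast genes summed to 0.225, 79.0, 132 and 88.3 CPM in chow replicates 1 to 4 and to 341, 225, 213 and 101 CPM in HFD replicates 5 to 8. Their makeup differed: of these sums the pericyte gene Rgs5 gave 78.84, 128.3 and 85.43 CPM in chow replicates 2 to 4 and 97.01 CPM in HFD replicate 8, while the collagen genes Col1a1, Col1a2 and Col3a1 gave 262, 145 and 157 CPM in HFD replicates 5 to 7. Endocrine genes summed to 444 to 1740 CPM in chow and 926 to 1810 CPM in HFD. In such bulk samples, fewer cells of a type and less RNA per cell cannot be told apart.

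Csf2rb and Csf2rb2 are neighbours on chromosome 15 of GRCm38, Csf2rb on the plus strand from 78325752 to 78353847 and Csf2rb2 on the minus strand from 78282507 to 78305721, and their likeness bears on how reads could be assigned to each. In the GENCODE M21 transcripts Csf2rb-201 and Csf2rb2-201, with 2688 and 2634 coding bases, the aligned coding sequences were 95.2% identical outside gaps, with 125 mismatches. The longest stretch without a mismatch was 242 bases, coding bases 2083 to 2324 of both genes, counted from the A of the start codon. It lies in exon 14 of 14, at chr15:78348577-78348818 in Csf2rb and chr15:78284630-78284871 in Csf2rb2, and is shown because a short read inside it cannot be assigned to either gene. Below it are the 120 gap-free coding bases where the pair differs most, with 22 mismatches in capitals, spanning exons 4 and 5 of each gene (chr15:78338898-78340471 and chr15:78292838-78294433, intron included). All are coding sequence, written 5′ to 3′ on the gene's own strand.
Csf2rb and Csf2rb2, shared: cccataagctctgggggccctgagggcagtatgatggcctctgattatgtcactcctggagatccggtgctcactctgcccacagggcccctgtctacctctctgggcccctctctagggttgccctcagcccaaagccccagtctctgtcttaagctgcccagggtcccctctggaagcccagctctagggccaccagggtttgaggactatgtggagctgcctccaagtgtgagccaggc
Csf2rb: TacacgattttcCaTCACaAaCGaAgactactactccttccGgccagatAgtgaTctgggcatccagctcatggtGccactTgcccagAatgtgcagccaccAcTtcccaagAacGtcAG
Csf2rb2: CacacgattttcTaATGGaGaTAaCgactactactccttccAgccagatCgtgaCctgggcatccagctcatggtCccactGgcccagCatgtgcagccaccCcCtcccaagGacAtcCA
Of all 50-base windows of the Csf2rb transcript 18.9% also occurred in Csf2rb2, and of 100-base windows 7.2%. The corresponding shares of the Csf2rb2 transcript were 19.0% and 7.2%. The read length is not given in the sources used here. Both genes had exactly whole deposited values in all 8 libraries (tolerance 0), so no fractional sharing between them is visible, but their split is reported as uncertain and their sum is given beside it.

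Csf1r lies on chromosome 18. It had 1048, 825.2, 933.8 and 855.7 CPM in chow replicates 1 to 4, and 923.6, 866.0, 699.3 and 964.9 CPM in HFD replicates 5 to 8. The lowest library was HFD replicate 7 and the highest chow replicate 1, a range of 1.5-fold over all 8 libraries, and the diets overlapped. The log2 fold change, HFD over chow, was -0.08 (SE 0.15), with a 95% interval of -0.40 to 0.23, or 0.756-fold to 1.18-fold. Its standard error was among the smallest of all tested genes, with 0.582% having a smaller one, beside a median SE of 0.75. Without HFD replicate 7 the estimate was 0.0027. With the log2 sum of stellate and fibroblast transcripts as a covariate, set largely by its low value in chow replicate 1, it was 0.02. Its exons share 873 bases with Hmgxb3 on the opposite strand. In 6 libraries the Csf1r value was fractional, and in all 8 the values of both genes added up to a whole number (within 0.011), of which Hmgxb3 took 0.0551% to 2.89%.

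Csf2ra, which encodes the GM-CSF receptor alpha chain (chromosome 19, 61223957 to 61228429), had 395.4, 348.9, 352.5 and 396.0 CPM in chow replicates 1 to 4. In HFD replicates 5 to 8 it had 153.5, 414.8, 248.3 and 410.7 CPM. The chow libraries lay close together, whereas HFD replicates 5 and 7 were below all of them and HFD replicates 6 and 8 above all of them. The means were 373.2 ± 26.02 CPM for chow and 306.8 ± 128.3 CPM for HFD (SD, n = 4), a log2 fold change of -0.28 (SE 0.26, 95% interval -0.82 to 0.25). Without HFD replicate 5 the log2 fold change was -0.06, and without HFD replicate 6 it was -0.47, neither past the threshold. In HFD replicate 5 the macrophage list summed to 5450 CPM, within the range of the other libraries, and the 9 stellate and fibroblast genes to 341 CPM, the highest of all libraries. The acinar genes summed to 62.8 CPM in HFD replicate 5 and 1500 CPM in HFD replicate 7. The part of these transcripts in the Csf2ra values was not tested.

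Csf2rb, the common beta chain gene, had 163.8, 142.1, 104.9 and 156.5 CPM in chow replicates 1 to 4, and 84.22, 188.1, 152.2 and 107.7 CPM in HFD replicates 5 to 8. The lowest and the highest library were both HFD libraries, replicates 5 and 6. Its log2 fold change was -0.09 (SE 0.30, 95% interval -0.72 to 0.53). Csf2rb2, the IL-3 beta chain gene, had 92.55, 100.2, 169.6 and 58.29 CPM in chow and 45.68, 93.25, 143.3 and 93.59 CPM in HFD, in the same order of replicates. Chow replicate 3 was the highest library and HFD replicate 5 the lowest, and the diets overlapped. Its log2 fold change was -0.16 (SE 0.39, 95% interval -0.97 to 0.64). Without HFD replicate 5 the estimates were 0.08 for Csf2rb and 0.07 for Csf2rb2, above 0 in both, and without chow replicate 3 that of Csf2rb2 was 0.16.

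The summed beta chain pair was at 256.3, 242.3, 274.5 and 214.8 CPM in chow replicates 1 to 4, and at 129.9, 281.3, 295.5 and 201.2 CPM in HFD replicates 5 to 8. In chow the sum varied less, relative to its mean, than either gene, with 247.0 ± 25.18 CPM (SD, n = 4). HFD, with 227.0 ± 76.89 CPM (SD, n = 4), held both the lowest and the highest library. The difference of the mean log2 CPM was -0.188 (two-sided exact permutation test over 70 arrangements, p = 0.657, adjusted p = 0.914 over 3 such tests; the smallest p it allows is 0.0286). As 1 gene in the edgeR fit the pair was at -0.122 on the log2 scale (SE 0.25, adjusted p = 0.987).

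The split between the beta chain genes moved from library to library by far more than counting error. Csf2rb made up 63.9%, 58.6%, 38.2% and 72.9% of the pair in chow replicates 1 to 4. In chow replicate 3, where Csf2rb2 was the more abundant, the 95% exact binomial (Clopper-Pearson) interval was 35.6% to 40.9%, and in chow replicate 4 it was 69.8% to 75.7%. In HFD replicates 5 to 8 the share was 64.8%, 66.9%, 51.5% and 53.5%. A chi-square of a common share over the 8 libraries was 58.4 per degree of freedom; such intervals cover counting error only, since amplified reads are not independent molecules. The share was 58.4% ± 14.7 for chow and 59.2% ± 7.79 for HFD, a difference within the spread between libraries (SD, n = 4; exact permutation p = 0.914, adjusted p = 0.914). Without chow replicate 3 the difference was -5.96 percentage points, and without chow replicate 4 it was 5.59.

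**Figure D2:**
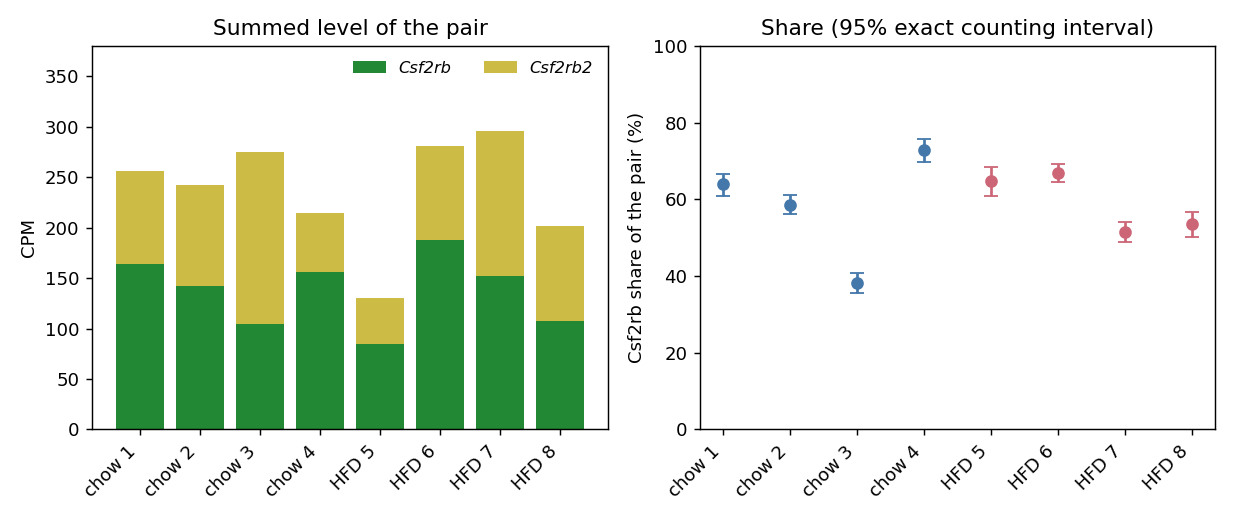
Left, CPM of Csf2rb and Csf2rb2 stacked for each library; right, the Csf2rb share of the pair in percent with 95% exact counting intervals, chow in blue and HFD in red. The sum is lowest in HFD replicate 5 at 129.9 CPM, and the share runs from 38.2% in chow replicate 3 to 72.9% in chow replicate 4.

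Csf3r, the G-CSF receptor gene (chromosome 4, 126024550 to 126044440), was detected in every library. It had 65.37, 30.6, 48.72 and 92.98 CPM in chow replicates 1 to 4, and 101.9, 35.95, 64.28 and 84.56 CPM in HFD replicates 5 to 8. High and low libraries occurred in both diets, with means of 59.42 ± 26.5 and 71.67 ± 28.35 CPM (SD, n = 4). The log2 fold change was 0.27 (SE 0.44, 95% interval -0.65 to 1.19), so differences between 0.638-fold and 2.28-fold lie within the interval. Of 12 neutrophil marker genes, 11 had 0 counts in all 8 libraries, among them the granule gene Mpo, the receptor gene Cxcr2 and the calgranulin genes S100a8 and S100a9. The other marker, Mmp8, a neutrophil collagenase, had 104 counts in HFD replicate 5, 1 each in HFD replicates 7 and 8, and 0 elsewhere. HFD replicate 5 also had the highest Csf3r level, 101.9 CPM, and chow replicate 4, with all 12 markers at 0, the next, 92.98 CPM. The part of neutrophil RNA in the Csf3r values was not tested. The short genes S100a6 and S100a10, which are not neutrophil markers and were named after their values were seen, also had 0 counts in 5 and 6 libraries.

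**Figure D3:**
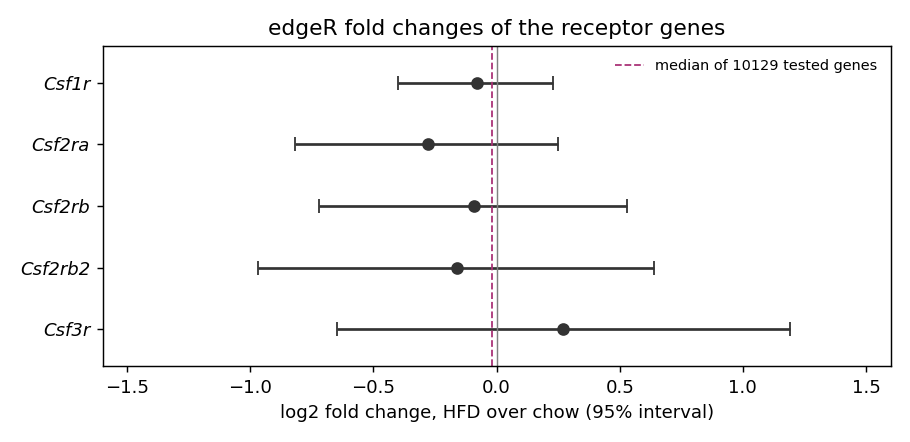
Log2 fold change, HFD over chow, of the 5 tested receptor genes with approximate 95% intervals calculated from the edgeR test of 4 against 4 libraries. The dashed line marks the median of all 10129 tested genes, -0.02. All 5 intervals include 0, and they widen from Csf1r to Csf3r.

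The receptor genes differed in which libraries were high or low. HFD replicate 5 was the lowest library for Csf2ra, Csf2rb and Csf2rb2, at -1.28, -0.75 and -1.20 on the log2 scale relative to the chow means, and the highest for Csf3r, at 0.78. In the same library Csf1r was at 0.01. The ratio of Csf1r to the summed beta chain counts was 4.09, 3.41, 3.4 and 3.98 in chow replicates 1 to 4, and 7.11, 3.08, 2.37 and 4.79 in HFD replicates 5 to 8. HFD thus held the highest and the 2 lowest ratios. The mean log2 ratio was 1.89 ± 0.143 in chow and 1.99 ± 0.701 in HFD (SD, n = 4; exact permutation p = 0.80, adjusted p = 0.914). Without HFD replicate 5 the difference turned from 0.099 to -0.181. The ratio of Csf2ra to the pair was 1.28 to 1.84 in chow and 1.18, 1.47, 0.84 and 2.04 in HFD replicates 5 to 8, given without a test.

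**Figure D4:**
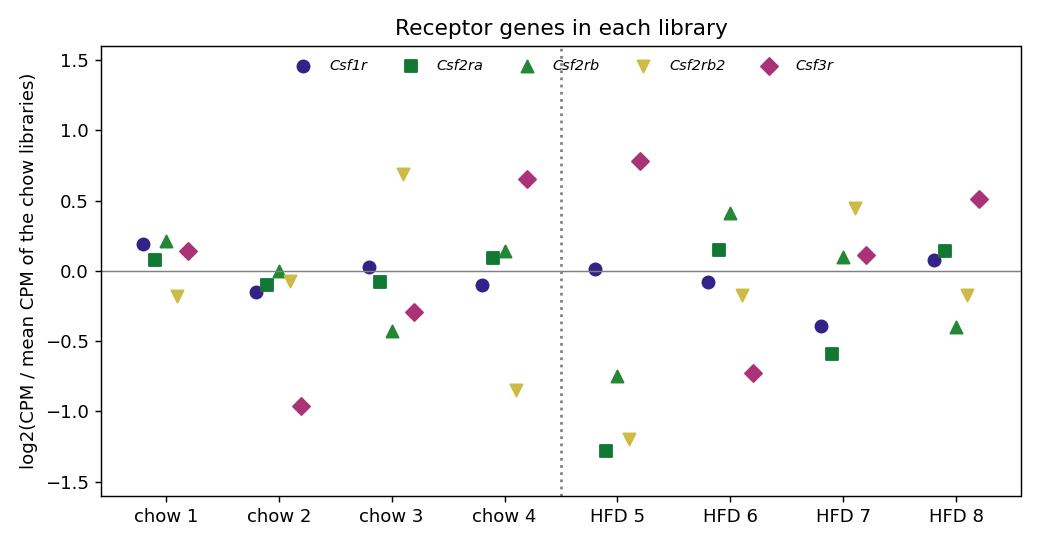
Log2 of each receptor gene's CPM over its mean in the chow libraries, for the 8 libraries, chow left of the dotted line. Csf1r stays between -0.39 and 0.19, while in HFD replicate 5 Csf2ra, Csf2rb and Csf2rb2 lie at -1.28, -0.75 and -1.20 and Csf3r at 0.78.

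Compared per length, as CPM per kilobase of merged exons over the 8 libraries, Csf1r had the highest level, 154.1 ± 18.03 (SD, n = 8), above 98.8% of the tested genes. Csf2ra followed at 118.4 ± 32.31 and was below Csf1r in 8 of 8 libraries, by 1.04-fold to 2.99-fold. Csf2rb2, Csf2rb and Csf3r, at 21.0 ± 8.57, 18.88 ± 4.826 and 18.16 ± 7.269, did not differ beyond their spread. Each of these levels exceeded 83.4% or more of the tested genes. Csf1 was at 0.5144 ± 0.5989, and Il34 at 0. With the longest principal transcript as the length instead, a setting added after seeing the data, Csf1r and Csf2ra could not be ordered, at 189 ± 22.1 and 184 ± 50.2 per kilobase with Csf1r above in 4 of 8 libraries. Csf2rb then stood above Csf2rb2, at 28.0 ± 7.17 against 21.0 ± 8.57, in 7 of 8 libraries, so the order within both pairs depends on the gene model.

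Csf1, the gene of the main CSF1R ligand (chromosome 3, 107741048 to 107760469), had 0, 1, 7 and 13 counts in chow replicates 1 to 4 and 34, 12, 39 and 0 counts in HFD replicates 5 to 8. As CPM these were 0, 0.156, 1.45 and 3.07 in chow and 6.75, 2.08, 8.22 and 0 in HFD. HFD replicates 5 and 7 were above every chow library, HFD replicate 8 was among the lowest, and the diets overlapped. A count of 0 allows a level of up to 0.674 CPM in chow replicate 1 and 0.603 CPM in HFD replicate 8, taken as 3 counts. These bounds cover counting error only, since amplified reads are not independent molecules, so the true level may be higher. Over the group sums the level in HFD was 3.93 times that in chow, with a counting interval of 2.41 to 6.67, which leaves out the spread between libraries. The log2 ratio of the mean CPM, 1.87, was 2.99 without chow replicate 4 and 1.33 without HFD replicate 7. Fitted without the filter, edgeR put it at 1.85 on the log2 scale (SE 1.98, adjusted p = 0.752).

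The 3 libraries with at most 1 Csf1 count were chow replicates 1 and 2 and HFD replicate 8, where the 9 stellate and fibroblast genes summed to 0.225, 79.0 and 101 CPM and the acinar genes to 0.225, 2.03 and 34.9 CPM. The stellate and fibroblast sums of chow replicate 2 and HFD replicate 8 were nearly all Rgs5. HFD replicate 8, with 0 Csf1 counts, had a higher sum of that list than chow replicate 4, at 88.3 CPM with 13 Csf1 counts. The collagen genes alone, singled out after their values were seen, were at no more than 1.81 CPM in the 3 libraries, but chow replicates 3 and 4, with 7 and 13 Csf1 counts, had no more than 2.83 CPM of them either. HFD replicates 5 and 7, with the most Csf1, had 341 and 213 CPM of stellate and fibroblast transcripts and 62.8 and 1500 CPM of acinar transcripts. Endothelial markers summed to 1.24 to 10.1 CPM in chow and 0.201 to 13.7 CPM in HFD, with the highest sum in HFD replicate 7. The part of stromal, acinar or endothelial RNA in the Csf1 counts was not tested.

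**Figure D5:**
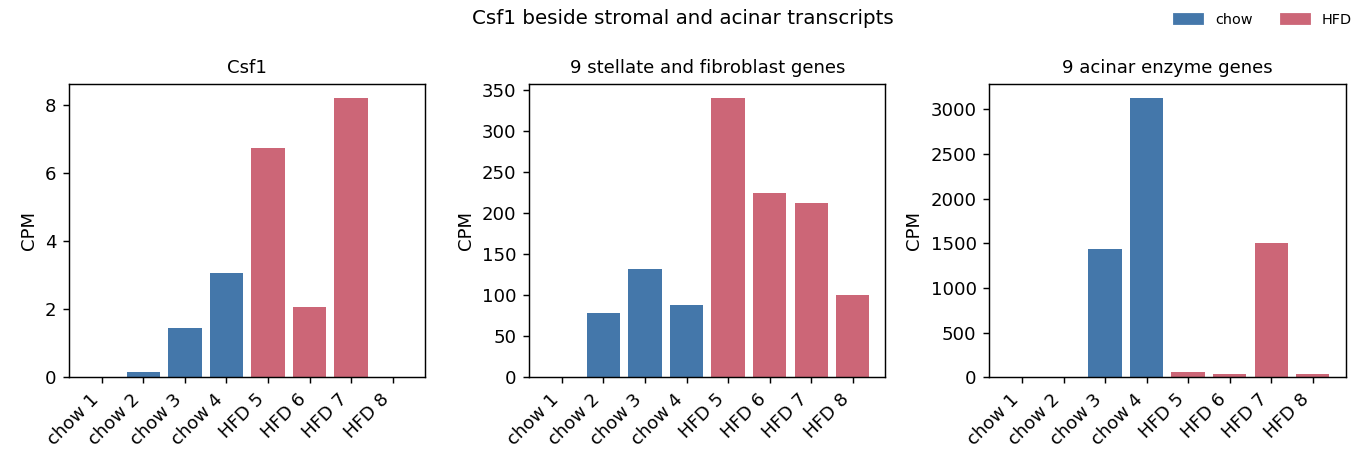
CPM of Csf1, of 9 summed stellate and fibroblast genes, and of 9 summed acinar enzyme genes in each library, chow in blue and HFD in red, each panel on its own linear axis from 0. The 3 libraries with at most 0.156 CPM of Csf1, chow replicates 1 and 2 and HFD replicate 8, have 0.225, 79.0 and 101 CPM of stellate and fibroblast transcripts and at most 34.9 CPM of acinar transcripts.

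Il34, the gene of the other CSF1R ligand (chromosome 8, 110741829 to 110805924), had 0 counts in each of the 8 libraries. The most that these zeros allow is 0.468 to 0.708 CPM per library, or 0.0742 CPM over all libraries together, for counting error only. Its transcripts were therefore not detected in the sorted cells at this depth and RNA input. The genes of the ligands of the other receptors, Csf2 (GM-CSF), Csf3 (G-CSF), Il3 and Il5, likewise had 0 counts in all libraries. Il5ra, the IL-5 receptor alpha chain gene, also had 0 counts, and Il3ra, the IL-3 receptor alpha chain gene, had 22 counts, all in chow replicate 3. That library also had the highest level of Csf2rb2, 169.6 CPM. These 6 genes, and Ptprz1 and Sdc1 below, were not tested and were named after their values were seen.

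The other genes of these pathways were taken from 8 lists with 83 genes, of which 62 were tested, 31 of them above and 31 below 0 in log2 fold change, with 0 called. Of the 62 genes 4 had an unadjusted p under 0.05, beside 5.35% of all tested genes. The diets did not overlap for 2 of the 62, Myc and Osm, both higher in HFD, or 3.23%, beside 3.39% of all tested genes in either direction. Osm passed the filter on low counts only through its HFD libraries. Both shares lie near the background.

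Genes that carry the CSF1R signal were 21 of 23 tested, with 11 above and 10 below 0, a median log2 fold change of 0.03 and 0 called. Fgr, a Src-family kinase gene, had 36.62 ± 35.61 CPM for chow and 16.64 ± 11.6 CPM for HFD (SD, n = 4). The adaptor gene Shc1 had 20.71 ± 14.11 and 40.74 ± 29.47 CPM. Sheddases that cut CSF1R from the cell surface were abundant in both diets, with Adam17 at 411.3 ± 90.21 and 458.1 ± 23.08 CPM and Adam10 at 450.2 ± 27.45 and 463.2 ± 45.57 CPM. Of the other proposed IL-34 receptors, Ptprz1 had 40 counts in chow replicate 1, 39 in HFD replicate 8 and 0 elsewhere and was not tested, and Sdc1 had 0 counts throughout.

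Transcription factors known at the Csf1r promoter and enhancer were 9 of 10 tested, with 4 above and 5 below 0, a median of -0.06 and 0 called. Their smallest p-values belonged to Irf8, with 136.2 ± 77.17 CPM for chow and 95.49 ± 14.78 CPM for HFD, Elf1, at 122.3 ± 27.03 and 163.7 ± 52.4 CPM, and Fosl2, at 18.63 ± 14.03 and 37.95 ± 28.06 CPM (SD, n = 4).

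The 7 genes listed as transmitting GM-CSF, IL-3 and G-CSF signals, JAK and STAT genes and the phosphatase gene Ptpn11, were all tested, 3 above and 4 below 0, with a median of -0.13 and 0 called. Stat5a had 10.85 ± 6.142 CPM for chow and 22.98 ± 13.96 CPM for HFD, and its close paralogue Stat5b, from which short reads may not always be told apart, at 24.44 ± 6.202 and 18.3 ± 17.69 CPM (SD, n = 4). Jak2 was at 86.03 ± 57.02 and 64.58 ± 37.86 CPM and Tyk2 at 14.87 ± 7.375 and 22.77 ± 12.87 CPM. Stat5b was named outside the rule, after its values were seen.

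Feedback and survival targets of STAT5 and STAT3 were 6 of 10 tested, 1 above and 5 below 0, with a median of -0.59 and 0 called. The gene above 0 was Osm, which encodes the cytokine oncostatin M. It had 1, 1, 0 and 2 counts in chow replicates 1 to 4 and 21, 47, 32 and 101 counts in HFD replicates 5 to 8, without overlap. With at most 2 counts in any chow library, Osm passed the filter on low counts only through its HFD libraries. Its lack of overlap and its p are therefore no independent support for a difference. The edgeR adjusted p of Osm was 0.647 (unadjusted p = 0.0018), so it did not pass the threshold. Mcl1, a survival gene, was at 1259 ± 413.1 and 1039 ± 226.2 CPM, and the repressor gene Bcl6 at 69.15 ± 13.5 and 50.27 ± 16.97 CPM (SD, n = 4). The feedback inhibitor gene Cish, a standard STAT5 target, had 61 counts in chow replicate 1, 37 in HFD replicate 5, 1 in HFD replicate 7 and 0 elsewhere, and was not tested; it was named after its values were seen.

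Genes known to respond to GM-CSF in macrophages were 9 of 13 tested, 5 above and 4 below 0, with a median of 0.02 and 0 called. Il1rn, the interleukin-1 receptor antagonist gene, had 54.14, 5.62, 48.31 and 17.94 CPM in chow replicates 1 to 4, and 7.349, 1.216, 21.71 and 2.008 CPM in HFD replicates 5 to 8, with overlap (-1.96 on the log2 scale, SE 0.94, edgeR adjusted p = 0.933). Irf4, a transcription factor gene, had 21.25 ± 15.16 CPM for chow and 51.81 ± 13.86 CPM for HFD (SD, n = 4). Cebpd, a C/EBP family factor gene, had 13.91 ± 24.52 and 2.722 ± 2.454 CPM (SD, n = 4), the chow mean resting on 50.59 CPM in chow replicate 3. The chemokine gene Ccl22 had 28 counts in chow, all in replicate 3, and 64 in HFD, and Ccl17 had 2 counts in all; both were untested and named after their values were seen.

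Growth genes known to respond to CSF1 were 8 of 10 tested, 5 above and 3 below 0, with a median of 0.15 and 0 called. Myc, a growth-promoting transcription factor gene, had 26.73, 11.24, 10.37 and 20.3 CPM in chow replicates 1 to 4, and 36.75, 41.85, 75.24 and 44.39 CPM in HFD replicates 5 to 8, so every HFD library was above every chow library. HFD over chow it was at 1.53 on the log2 scale (SE 0.56, edgeR adjusted p = 0.752). Egr1, an immediate-early gene, had 2.696, 6.088, 17.21 and 24.31 CPM in chow and 23.24, 37.16, 57.96 and 42.18 CPM in HFD, with overlap between chow replicate 4 and HFD replicate 5 only (1.67 on the log2 scale, SE 0.71, edgeR adjusted p = 0.888). Neither gene passed the threshold. Ccnd2, a D-type cyclin gene, was at 68.99 ± 49.03 and 46.84 ± 8.843 CPM (SD, n = 4).

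The tested genes whose profiles over the 8 libraries lay closest to each receptor gene were found by the root mean square difference of log2(CPM + 1), each gene centred on its own mean; smaller is more alike. For Csf1r these were the small GTPase gene Rhoa, the NADPH oxidase subunit gene Cybb and the Mediator subunit gene Med13, at 0.0959, 0.0994 and 0.101, where the median over 10128 genes was 0.869. Csf1r itself varied little about its mean (root mean square 0.163), so any steady gene lies close to it. For Csf2ra the closest gene was Siglech, a lectin known from plasmacytoid dendritic cells and some tissue macrophages, at 0.119, followed by the scaffold gene Krit1 at 0.171 and mt-Nd2, a mitochondrially encoded complex I subunit, at 0.192. Siglech had 212, 160, 179 and 204 CPM in chow replicates 1 to 4, and 91.0, 188, 132 and 219 CPM in HFD replicates 5 to 8, low in the same HFD libraries as Csf2ra.

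Siglech is also on the list of 9 dendritic cell markers, which summed to 251 to 301 CPM in chow and 152 to 275 CPM in HFD; of its genes only Ccr7 was at 0 in all libraries. Without Siglech the list summed to 72.8, 141, 94.5 and 46.7 CPM in chow and 61.4, 87.2, 114 and 17.9 CPM in HFD. In HFD replicate 5, where Csf2ra was lowest at 153.5 CPM, Siglech was lowest too and this sum was 61.4 CPM. Lower sums, 46.7 CPM in chow replicate 4 and 17.9 CPM in HFD replicate 8, stood beside 396.0 and 410.7 CPM of Csf2ra. HFD replicate 7, with 248.3 CPM of Csf2ra, had a sum of 114 CPM. The part of dendritic cell RNA in the Csf2ra values was not tested.

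For Csf2rb the closest were the nuclear pore gene Tpr (0.173), the RNA-binding protein gene Rbm26 (0.188) and the signalling adaptor gene Tab2 (0.188). For Csf2rb2 they were the 14-3-3 gene Ywhaq (0.177), the deubiquitinase gene Usp25 (0.190) and the DNA repair complex gene Babam2 (0.201). For Csf3r they were the cell fate gene Numb (0.236), the phosphatase subunit gene Ppp2r5e (0.251) and the protein kinase C gene Prkch (0.256). No receptor gene was among the 3 closest of another. Ranked by likeness to Csf2ra among 10128 genes (median 0.966), its partner chain gene Csf2rb stood at place 263 (0.38) and Csf3r at place 4323 (0.879). Ranked by likeness to Csf2rb (median 0.925), its paralogue Csf2rb2 stood at place 2323 (0.611). These distances are descriptions over 8 libraries and carry no test.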

How the data were processed

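RNA from sorted islet macrophages (500 pg per library) was amplified with the Ovation RNA-Seq System V2, per the labels' protocols. FastQC, Trim Galore, STAR and the GRCm38 build are named in the submitters' processing notes; the sources used here give no versions, counting program or annotation. Values as deposited are expected counts per gene, not scaled between libraries, 1 column per library; they were rounded to whole numbers. Nothing says whether strand was used, so overlapping genes on opposite strands cannot be told apart.

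Genes were tested with edgeR (version 4.0.16, R 4.3.3): TMM scaling, filterByExpr (10129 genes kept), a robust quasi-likelihood fit on diet alone, two-sided, and Benjamini-Hochberg adjusted p under 0.05. The summed beta chain genes, their split and the receptor ratio were compared by exact permutation. P-values measure the spread between pooled libraries. On data simulated for the HFD versus chow comparison with 10129 genes, 4% of 2-fold, 28.7% of 4-fold and 51.3% of 8-fold changes were called. The changed genes were drawn from all tested genes, whose median SE was 0.75. The receptor genes had SEs of 0.15 (Csf1r) to 0.44 (Csf3r), so these shares do not describe them. Alternatives were other scalings, filters, a fit that was not robust, a stellate and fibroblast covariate, and each library left out. The other tools were DESeq2 (1.42.0) and limma-voom with library quality weights (limma 3.58.1). Gene models came from GENCODE M21, with coordinates 1-based on GRCm38. Named genes were the 7 members, the 3 closest profiles per tested member and up to 3 genes with the smallest p per list, with exceptions marked; 1 such gene is not reported here. Members and lists were chosen with earlier results of these data known.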

Additional observations from a re-analysis of the deposited data

How the results depend on the processing

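No receptor gene passed the threshold under any alternative run; over the scalings, filters, tools and covariate the log2 fold change was -0.34 to -0.19 for Csf2ra, -0.24 to -0.02 for Csf2rb2 and 0.18 to 0.36 for Csf3r. With the stellate and fibroblast covariate the sign changed for Csf1r (0.02) and Csf2rb (0.03). That covariate, the log2 of the summed list, was set largely by chow replicate 1, at 0.225 CPM against 79.0 to 341 CPM elsewhere. Leaving out chow replicate 1 alone gave -0.02 for Csf1r and -0.01 for Csf2rb. The sum also averaged 74.8 CPM in chow and 220 CPM in HFD. This fit therefore cannot separate stromal RNA from diet or from chow replicate 1. The number of genes called was 0 of 10129 with edgeR after the filter and 45 of 17969 with edgeR and no filter. On the filtered genes it was 25 with DESeq2 and 1 with limma-voom with library quality weights. With each library left out in turn edgeR called 0 to 11 genes, the 11 without HFD replicate 8. The log2 fold changes then ran from -0.14 to 0.0027 for Csf1r, -0.47 to -0.06 for Csf2ra, -0.31 to 0.08 for Csf2rb, -0.44 to 0.16 for Csf2rb2 and 0.05 to 0.56 for Csf3r. The log2 ratio of mean Csf1 levels, 1.87, ran from 1.33 without HFD replicate 7 to 2.99 without chow replicate 4. The beta chain sum ran from -0.339 to 0.0562, the Csf2rb share from -5.96 to 5.59 percentage points and the log2 ratio of Csf1r to the pair from -0.181 to 0.348. Signs changed without HFD replicate 5 for Csf2rb, Csf2rb2, their sum, their split and the ratio, without chow replicate 3 for Csf2rb2 and the split, without HFD replicate 6 for the split and without HFD replicate 7 for Csf1r; the cause was not tested. No paired analysis was possible because the diets share no replicate number (chow 1 to 4, HFD 5 to 8). For Csf1 and Il34 a library's floor at this depth is 0.468 to 0.708 CPM, which covers counting error only and not losses during amplification.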
